A study of Mus musculus with 24 samples.

Results

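A set of 10 interferon-stimulated antiviral genes was followed across 24 RNA-seq libraries of mouse primary microglia. The genes are Ifit1, Ifit2, Ifit3, Rsad2, Cmpk2, Mx1, Mx2, Isg15, Isg20 and Usp18, taken by name from the deposited expression tables. They are 10 of the 18919 genes listed, and all 10 were among the 13294 that passed a filter on low counts. Microglia are the resident macrophages of the brain, and these were primary cells labelled as age p0. The CD14-deficient strain was B6.129S4-Cd14tm1Frm/J, with a targeted deletion of Cd14 in every cell of the mouse (KO), and the wild type was C57BL/6 (WT). Cells of each genotype received Re-LPS, a rough lipopolysaccharide with a short sugar chain, at 0.1 or 10 ng/ml, or mouse fibronectin (FN), an adhesive glycoprotein of blood and extracellular matrix, at 100 µg/ml. Exposure lasted 3 h, and further cells were left untreated. There were 3 libraries per group and 8 groups, the 3 of a group from separate cell preparations according to the series. The labels do not say whether libraries of the same number in different groups share a preparation. Within a genotype such libraries deviated together from their group means (r = 0.670 to 0.969 over 36 pairs). The main tests do not pair them.

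These genes make up the cell-intrinsic arm of the type I interferon response. A microglial cell that senses LPS through TLR4 can signal through the adaptor TRIF to IRF3, which drives interferon beta. Interferon beta then acts through its receptor to activate transcription factors that bind the interferon-stimulated response element (ISRE) upstream of their targets. CD14 is the co-receptor that hands LPS to the TLR4 complex and is needed for the internalised, TRIF-dependent arm at limiting LPS. Several of these genes can also be switched on by IRF3 itself, without interferon.

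The 10 genes lie at 6 loci (GRCm38, the mm10 build, GENCODE annotation). Ifit2 (chromosome 19, 34550694 to 34576419), Ifit3 (34583531 to 34588731) and Ifit1 (34640871 to 34650009) stand on the plus strand within 99.3 kb. Rsad2 (chromosome 12, 26442746 to 26456452, minus strand) and Cmpk2 (26469204 to 26479837, plus strand) point away from each other across 12.8 kb. Mx1 (chromosome 16, 97447035 to 97462907, minus strand) and Mx2 (97535308 to 97560900, plus strand) are 72.4 kb apart. Isg15 is on chromosome 4 (156199424 to 156200818, minus strand), Isg20 on chromosome 7 (78913424 to 78920396, plus strand) and Usp18 on chromosome 6 (121245906 to 121270917, plus strand). RefSeq lists Mx1 and Mx2 as transcribed pseudogenes, while GENCODE lists Mx1 as protein coding and Mx2 as a polymorphic pseudogene. C57BL/6 mice are known to carry a disabled Mx1 allele, so the Mx values here are of RNA only.

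Promoter sequences, from 250 bases before to 50 bases after the RefSeq start site (GRCm38.p6), were matched for 7 of the 10 genes. Mx1, Mx2 and Usp18 were not matched. An ISRE core (GAAA, any 2 bases, then GAAA, on either strand, overlapping matches counted) was present in the promoters of 4 genes, Ifit1, Ifit3, Isg15 and Rsad2, and in 3.44% of 32851 promoters of the same length. Ifit1, Ifit3 and Isg15 held it at 2 or more positions, which was so for 0.225% of those promoters. Their sequences are shown with the ISRE cores in capitals, 5′ to 3′ on the strand of the gene, and that of Cmpk2 is shown as the partner of Rsad2 in which these letters were not found.
Ifit1, chr19:34640639-34640938, plus strand: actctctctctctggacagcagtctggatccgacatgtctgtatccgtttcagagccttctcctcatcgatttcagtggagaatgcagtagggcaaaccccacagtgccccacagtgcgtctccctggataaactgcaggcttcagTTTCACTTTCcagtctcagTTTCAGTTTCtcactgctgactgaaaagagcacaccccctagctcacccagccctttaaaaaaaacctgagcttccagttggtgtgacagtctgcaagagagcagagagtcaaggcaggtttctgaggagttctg
Ifit3, chr19:34583279-34583578, plus strand: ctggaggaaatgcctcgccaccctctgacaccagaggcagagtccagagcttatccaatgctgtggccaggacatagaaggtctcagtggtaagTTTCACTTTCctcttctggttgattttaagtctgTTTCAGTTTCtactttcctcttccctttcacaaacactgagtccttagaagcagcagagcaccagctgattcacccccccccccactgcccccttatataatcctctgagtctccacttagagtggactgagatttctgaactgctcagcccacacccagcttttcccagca
Isg15, chr4:156200769-156201068, minus strand: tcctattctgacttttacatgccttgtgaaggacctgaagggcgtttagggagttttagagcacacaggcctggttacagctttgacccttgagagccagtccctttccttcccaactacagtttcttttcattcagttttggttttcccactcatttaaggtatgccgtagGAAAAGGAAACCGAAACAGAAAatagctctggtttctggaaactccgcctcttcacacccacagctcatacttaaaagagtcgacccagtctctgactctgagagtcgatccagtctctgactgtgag
Rsad2, chr12:26456403-26456702, minus strand: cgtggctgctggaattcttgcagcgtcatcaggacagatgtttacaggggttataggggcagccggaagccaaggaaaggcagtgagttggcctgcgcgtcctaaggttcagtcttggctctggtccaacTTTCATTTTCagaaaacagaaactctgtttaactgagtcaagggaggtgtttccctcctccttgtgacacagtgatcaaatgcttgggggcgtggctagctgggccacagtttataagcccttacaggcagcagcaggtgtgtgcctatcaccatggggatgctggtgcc
Cmpk2, chr12:26468965-26469264, plus strand: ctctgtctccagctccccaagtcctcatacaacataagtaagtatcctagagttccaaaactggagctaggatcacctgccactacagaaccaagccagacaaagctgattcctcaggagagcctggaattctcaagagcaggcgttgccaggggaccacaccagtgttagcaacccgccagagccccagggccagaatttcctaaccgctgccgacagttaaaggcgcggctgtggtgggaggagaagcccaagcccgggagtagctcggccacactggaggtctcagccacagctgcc
The ISRE cores began 104 and 85 bases before the start site in Ifit1, 156 and 122 in Ifit3, 120 in Rsad2, and 78, 72 and 66 in Isg15, where the 3 overlap in 1 run. Ifit1 and Ifit3 carry them as the reverse complement, as does Rsad2. The Ifit1 window overlaps that of the divergent paralogue Ifit1bl2 (chr19:34640694-34640993, minus strand), so both start sites face the same ISRE pair. An NF-kB site (GGGA, any base, then TTTCC, on either strand) was found for 0 of the 7 and in 0.411% of all promoters, and a TATA box (TATAAA on either strand) for 1 of the 7, Rsad2, and in 13.6%.

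Total counts per library ran from 14939019 to 22143774. The tables were checked against the labels. Cd14, the deleted gene, stood at 2.14 to 6.37 CPM (counts scaled to a common effective library size by the TMM method) in the 12 KO libraries and at 338 to 5329 CPM in the 12 WT libraries. The 10 microglial markers summed to 6180 to 9388 CPM in every library, with Csf1r at 1740 CPM or more. P2ry12 (2.71 to 24.6 CPM) and Tmem119 (4.37 to 44.2 CPM) were the lowest of them. At LPS 10 ng/ml the sum was 6180 to 7148 CPM in KO and 6638 to 7418 CPM in WT cells. In untreated cells it was 8079 to 8403 CPM in KO and 8161 to 9388 CPM in WT. With FN it was 7799 to 8522 CPM in KO and 6641 to 7139 CPM in WT cells. Markers of neurons summed to 2.78 to 58.9 CPM, of astrocytes to 11.2 to 42.7 CPM, of vascular cells and fibroblasts to 1.39 to 35.3 CPM and of the oligodendrocyte lineage to 120 to 456 CPM, and 3 leukocyte markers in the table to at most 0.569 CPM. Libraries of the same replicate number in a genotype deviated together from their group means. The third library of each group held the lowest value of all 10 genes in KO cells at LPS 0.1 ng/ml, LPS 10 ng/ml and FN and in WT cells at LPS 0.1 ng/ml, while in WT cells with FN that was the second library. In bulk RNA, fewer responding cells and less RNA per cell cannot be told apart. Adjusted p-values are those of quasi-likelihood tests in edgeR, adjusted by Benjamini-Hochberg over all 13294 genes. A gene counts as called where its adjusted p was under 0.05.

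**Figure D1:**
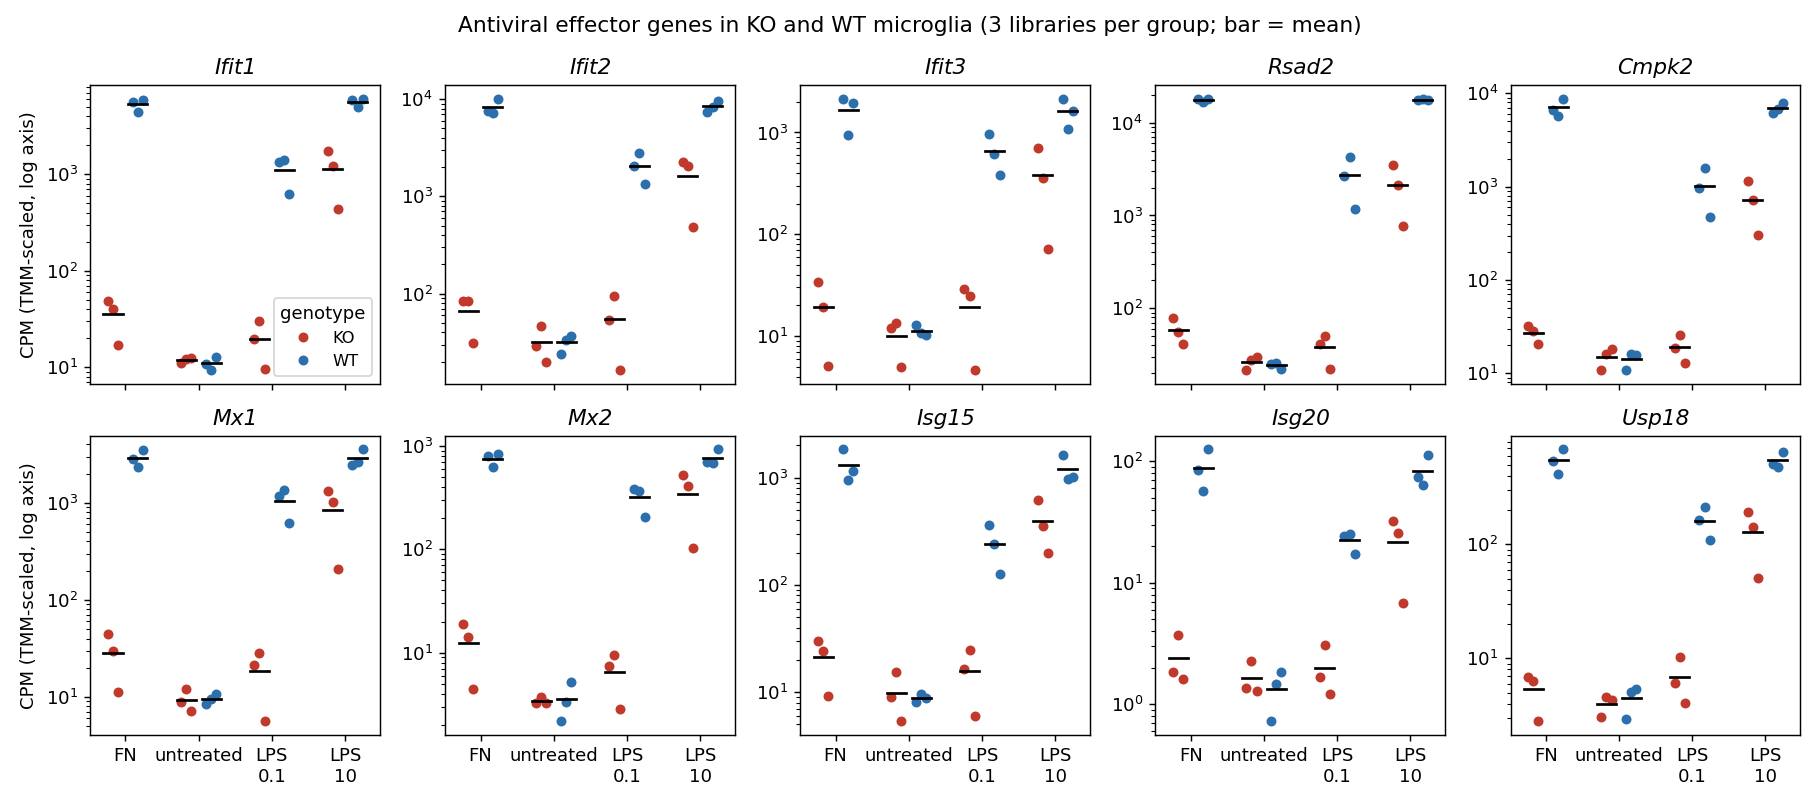
CPM (log axis) of each of the 10 genes in every library, with KO libraries in red left of WT libraries in blue for FN, untreated cells and LPS at 0.1 and 10 ng/ml; points are the 3 libraries of a group and bars their mean. KO cells with FN or LPS 0.1 ng/ml lie far below WT cells with the same stimulus in all 10 panels, while FN and LPS 10 ng/ml give the highest levels in WT cells.

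In KO microglia all 10 genes rose at LPS 10 ng/ml, 2 rose with FN and none was called at LPS 0.1 ng/ml. At LPS 10 ng/ml all 10 were called higher than in untreated KO cells, against 21.2% of genes, by 3.70 (Isg20) to 6.65 (Mx2), with a median of 5.63. Under LPS 0.1 ng/ml 0 of 10 were called, against 0.722% of genes called higher, and 0 of 10 had an unadjusted p under 0.05; DESeq2 and limma also called 0. With FN 2 of 10, Ifit1 and Mx2, were called higher, against 9.23% of genes. Untreated KO and WT cells differed for 0 of the 10 by edgeR, DESeq2 and limma, and for 0 at an unadjusted p under 0.05, where 1 gene in all was called (0.00752%), which was Cd14.

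In WT microglia every one of the 10 genes rose with each stimulus. At LPS 0.1 ng/ml all 10 were called higher, against 9.94% of all genes tested, with log2 fold changes of 4.05 (Isg20) to 6.80 (Rsad2) and a median of 6.09. At LPS 10 ng/ml all 10 were called higher, against 23.3% of all genes, by 5.94 (Isg20) to 9.51 (Rsad2) and a median of 7.91. With FN all 10 were called higher, against 23.7% of all genes, by 6.04 (Isg20) to 9.51 (Rsad2) and a median of 7.87. The median over all genes lay within 0.01 of 0 in these contrasts. The libraries of the stimulated and untreated WT cells did not overlap for any of the 10 in any of the 3 contrasts, a separation seen for 31.3% of genes at LPS 0.1 ng/ml, 58.0% at LPS 10 ng/ml and 58.5% with FN.

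Single markers of other cell types also moved with these stimuli, while most of those tested were not called. WT cells had 1 of 7 astrocyte, 1 of 10 oligodendrocyte-lineage and 0 of 7 neuron markers called under LPS 10 ng/ml and FN. The vascular and fibroblast list had 2 of 4. Of all genes, 23.3% were called higher with LPS 10 ng/ml and 23.7% with FN. The 9 vascular and fibroblast markers summed to 20.3 to 33.9 CPM in KO cells under LPS 10 ng/ml and 2.16 to 9.84 CPM with FN, against 1.39 to 8.78 CPM in untreated KO cells. In WT cells they summed to 11.7 to 35.3 CPM under LPS 10 ng/ml and 12.5 to 34.0 CPM with FN, against 2.27 to 9.14 CPM in untreated WT cells. Of the 4 that could be tested, Pdgfrb (at most 29.3 CPM) was called higher in KO cells under LPS 10 ng/ml (7.01 ± 0.78) and with FN (3.44 ± 0.71), and in WT cells under LPS 0.1 ng/ml (3.68 ± 0.70), LPS 10 ng/ml (6.14 ± 0.75) and with FN (5.99 ± 0.74). Cdh5 was called higher in WT cells under LPS 10 ng/ml (1.97 ± 0.56) and with FN (1.84 ± 0.56), while Cldn5, Dcn and Lum stayed under 0.2 CPM in all 24 libraries. The astrocyte marker Gja1 (at most 4.17 CPM) was called higher in KO cells under LPS 10 ng/ml (2.55 ± 0.80) and in WT cells under LPS 10 ng/ml (4.63 ± 0.88) and with FN (4.39 ± 0.87), and the oligodendrocyte marker Cnp in WT cells under LPS 10 ng/ml (1.14 ± 0.22) and with FN (1.20 ± 0.22). The part of these cells in the rises of the 10 genes was not tested.

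The shares of all genes called depend on the scaling of the libraries, while the 10 genes were called as often with library totals as with TMM scaling in each of the 6 contrasts against untreated cells. With TMM scaling 2819 genes were called higher and 2878 lower in KO cells at LPS 10 ng/ml, and with library totals 1502 higher and 5630 lower. In KO cells with FN these counts were 1227 higher and 953 lower with TMM scaling, and 879 and 1157 with library totals. In WT cells at LPS 0.1 ng/ml they were 1322 higher and 753 lower with TMM scaling, and 925 and 1597 with library totals. In WT cells at LPS 10 ng/ml they were 3097 higher and 3473 lower with TMM scaling, and 1444 and 7408 with library totals. In WT cells with FN they were 3153 higher and 3517 lower with TMM scaling, and 1490 and 7389 with library totals. For KO against WT cells, TMM scaling gave 395 higher and 842 lower at LPS 0.1 ng/ml, 1070 and 1044 at LPS 10 ng/ml, and 2795 and 2335 with FN. Library totals gave 679 higher and 624 lower at LPS 0.1 ng/ml, 3448 and 649 at LPS 10 ng/ml, and 6838 and 1117 with FN, and called 6 of the 10 genes lower at LPS 10 ng/ml against 7 with TMM scaling, Mx1 being lost. For LPS 10 against 0.1 ng/ml, TMM scaling gave 2430 higher and 2453 lower in KO cells and 1968 and 2317 in WT cells, where library totals gave 1278 and 4939 in KO cells and 840 and 6117 in WT cells. For FN against LPS 10 ng/ml in KO cells, TMM scaling gave 1004 higher and 1254 lower and library totals 3283 and 707. For the difference of the responses between KO and WT cells, TMM scaling gave 261 positive and 441 negative calls at LPS 10 ng/ml and 1564 and 1505 with FN, where library totals gave 927 and 265 at LPS 10 ng/ml and 4999 and 808 with FN.

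**Figure D2:**
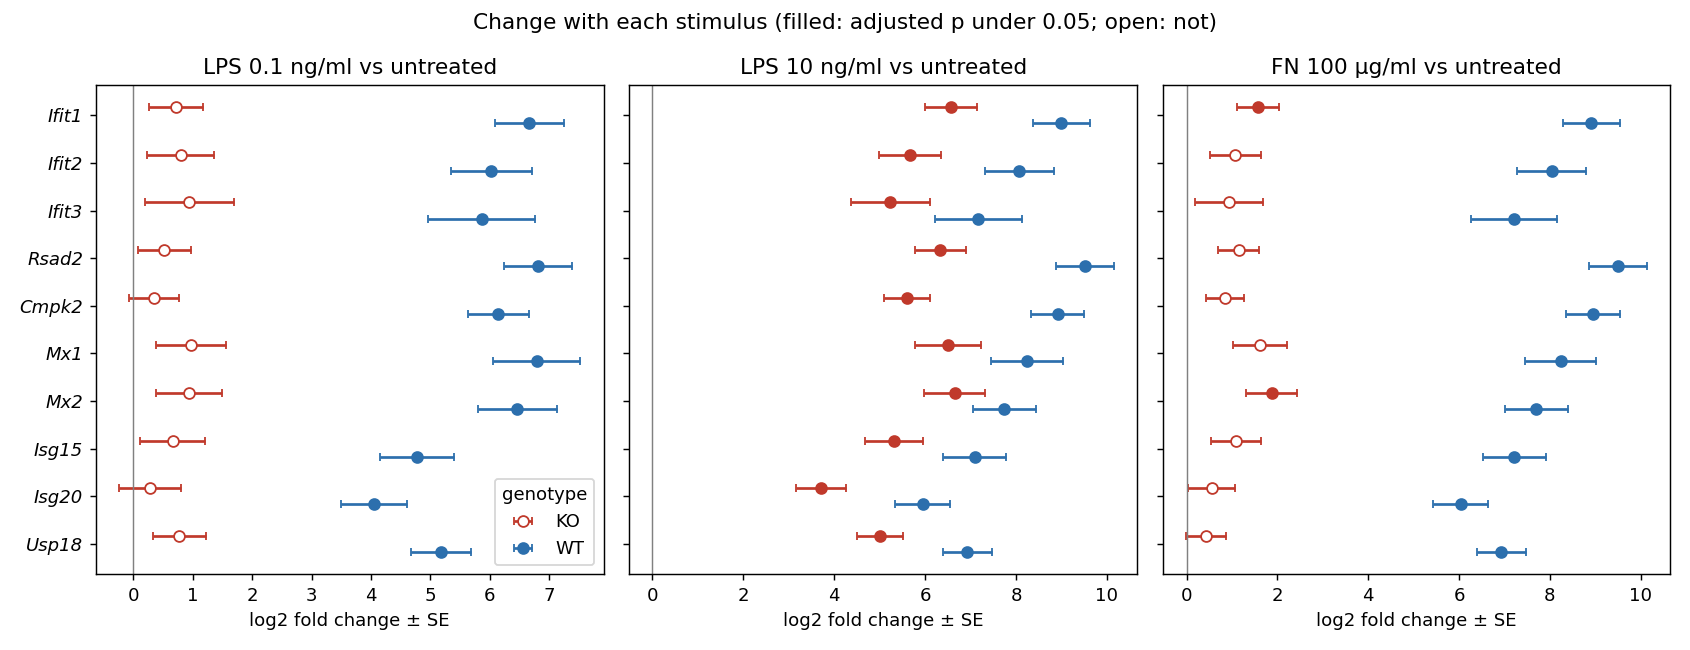
Log2 fold change ± standard error of the 10 genes against untreated cells of the same genotype, for LPS 0.1 ng/ml, LPS 10 ng/ml and FN, with KO in red above WT in blue; filled points have an adjusted p under 0.05. KO points at LPS 0.1 ng/ml are all open and lie between 0.28 and 0.98, and those with FN are filled for Ifit1 (1.57) and Mx2 (1.87) alone.

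Rsad2 (viperin) is a radical SAM enzyme that turns CTP into ddhCTP, a nucleotide that stops viral RNA synthesis. In KO cells it had 21.6, 28.0 and 29.8 CPM untreated, 41.5, 50.2 and 22.0 CPM at LPS 0.1 ng/ml, and 3507, 2112 and 762 CPM at LPS 10 ng/ml. In WT cells it had 25.2, 25.6 and 22.1 CPM untreated, 2655, 4308 and 1182 CPM at LPS 0.1 ng/ml, and 17612, 18054 and 17554 CPM at LPS 10 ng/ml. With FN it had 78.6, 55.5 and 41.7 CPM in KO cells, against 18162, 16731 and 18209 CPM in WT cells. The WT libraries at LPS 10 ng/ml and with FN were close to each other and above all others, while the KO libraries at LPS 10 ng/ml differed among themselves by more than 4-fold. In KO cells Rsad2 rose 80.4-fold at LPS 10 ng/ml (log2 6.33 ± 0.56, adjusted p = 5.60e-08). In WT cells it had the highest fold change of the 10 genes, 730-fold at LPS 10 ng/ml (log2 9.51 ± 0.64, adjusted p = 1.12e-09), 729-fold with FN (9.51 ± 0.64, adjusted p = 1.15e-09) and 112-fold at LPS 0.1 ng/ml (6.80 ± 0.57, adjusted p = 1.60e-07).

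Cmpk2, a mitochondrial nucleotide kinase that supplies CTP and dCTP, lies next to Rsad2. It had 10.8, 16.2 and 18.0 CPM in untreated KO cells, 18.8, 25.5 and 12.8 CPM at LPS 0.1 ng/ml and 1152, 722 and 304 CPM at LPS 10 ng/ml. In WT cells it had 11, 16 and 15.9 CPM untreated, 978, 1578 and 479 CPM at LPS 0.1 ng/ml and 6172, 6734 and 7853 CPM at LPS 10 ng/ml. With FN it had 32.3, 28.3 and 20.5 CPM in KO cells, against 6645, 5749 and 8811 CPM in WT cells. No KO library with FN came within 100-fold of a WT library with FN. Within libraries the ratio of Rsad2 to Cmpk2 counts ranged from 1.39 to 3.05 over all 24 libraries. The ratio of Rsad2 to Ifit1 counts, a gene on another chromosome, ranged from 1.37 to 3.75.

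Ifit1 binds RNA whose cap lacks the methyl marks of the host and blocks its translation, Ifit2 is a related RNA-binding protein that limits neurotropic viruses in mice, and Ifit3 is a partner of the others. Ifit1 had 11.2, 12.1 and 12.6 CPM in untreated KO cells, 19.7, 30.0 and 9.52 CPM at LPS 0.1 ng/ml and 1753, 1209 and 440 CPM at LPS 10 ng/ml. In WT cells it had 10.8, 9.37 and 12.9 CPM untreated, 1330, 1406 and 619 CPM at LPS 0.1 ng/ml and 5857, 4938 and 6098 CPM at LPS 10 ng/ml. With FN it had 49.0, 40.4 and 17.2 CPM in KO cells, against 5627, 4466 and 5831 CPM in WT cells. All 3 KO libraries with FN lay above the untreated KO libraries, the third by little. Ifit2 reached a mean of 1601 ± 969 CPM (SD, n = 3) in KO cells at LPS 10 ng/ml, against 8482 ± 1121 CPM in WT cells. With FN, Ifit2 had 83.9, 83.9 and 31.5 CPM in KO cells, against 7532, 7217 and 10145 CPM in WT cells. Under LPS 0.1 ng/ml it had 53.5, 95 and 16.4 CPM in KO cells, against 2037, 2779 and 1346 CPM in WT cells. The first and second KO libraries of Ifit2 lay above the range of untreated KO cells (19.7 to 46.4 CPM) under both stimuli and the third lay within or below it. Ifit3 reached 381 ± 320 CPM in KO cells at that dose, against 1624 ± 537 CPM in WT cells.

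Mx1 and Mx2 encode dynamin-like GTPases that trap viral nucleocapsids in strains with an intact allele. Mx1 had 1332, 1009 and 210 CPM in KO cells at LPS 10 ng/ml, against 2474, 2626 and 3545 CPM in WT cells. Mx2 had 525, 407 and 102 CPM in KO cells, against 704, 687 and 925 CPM in WT cells at the same dose. The KO and WT libraries did not overlap for either gene, and the third KO library was the lowest by far. With FN, Mx2 had 18.9, 14.2 and 4.5 CPM in KO cells, against 3.28, 3.70 and 3.27 CPM in untreated KO cells. The first and second libraries stood clear of the untreated ones and the third did so by less than 1 CPM. With FN, Mx1 had 44.9, 29.9 and 11.3 CPM in KO cells, against 2833, 2312 and 3510 CPM in WT cells. Under LPS 0.1 ng/ml it had 21.3, 28.6 and 5.65 CPM in KO cells, against 1184, 1344 and 627 CPM in WT cells. The third KO library lay within or below the range of untreated KO cells (7.15 to 12.1 CPM) in both. Mx1 and Mx2 transcripts are 81.0% identical where they align and 4.77% of the 50-base windows of Mx1 occur in Mx2, so few reads could be exchanged between them.

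Isg15 is a ubiquitin-like protein that is attached to other proteins and also secreted, and Usp18 is the protease that removes it and a brake on the interferon receptor. Isg15 had 626, 357 and 200 CPM in KO cells at LPS 10 ng/ml, against 1629, 980 and 1009 CPM in WT cells. Usp18 had 191, 143 and 51.0 CPM in KO cells at that dose, against 511, 480 and 648 CPM in WT cells. The groups did not overlap for either. With FN, Isg15 had 30.2, 24.3 and 9.24 CPM and Usp18 6.80, 6.39 and 2.82 CPM in KO cells, against 1835, 944 and 1167 CPM for Isg15 and 540, 418 and 681 CPM for Usp18 in WT cells. The third KO library was again the lowest for both. Isg20, an exonuclease that degrades single-stranded RNA, had the smallest log2 fold change of the 10 against untreated cells at this dose in both genotypes, with 32.1, 25.7 and 6.84 CPM in KO cells at LPS 10 ng/ml, against 74.2, 63.2 and 112 CPM in WT cells. In untreated cells it stood at 1.28 to 2.27 CPM in KO and at 0.727 to 1.83 CPM in WT libraries.

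Per kilobase of exon the order of the genes changed with stimulation. Isg15 stood highest in untreated cells, at 13.1 ± 6.68 CPM per kb in KO and 11.7 ± 1.10 in WT, with Ifit2 next at 8.04 ± 3.45 in KO and 8.02 ± 1.71 in WT. Rsad2 stood highest in WT cells at LPS 10 ng/ml (4092 ± 63.0 CPM per kb) and with FN (4083 ± 194), followed at LPS 10 ng/ml by Ifit2 (2160 ± 285), Ifit1 (2120 ± 230), Cmpk2 (1662 ± 206) and Isg15 (1595 ± 485). Among those 4, the libraries of each gene overlapped those of its neighbours in the order. In KO cells at LPS 10 ng/ml Isg15 (522 ± 285), Rsad2 (491 ± 317), Ifit1 (427 ± 248) and Ifit2 (408 ± 247) led, with SDs wider than the steps between them. Isg20 was lowest in all 8 groups. Together the 10 genes took 2.98 to 3.78% of all counts in the WT libraries at LPS 10 ng/ml and with FN, 0.593 to 1.33% in WT libraries at LPS 0.1 ng/ml, 0.238 to 0.971% in KO libraries at LPS 10 ng/ml and 0.0101 to 0.0406% in the other 12 libraries.

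At LPS 10 ng/ml all 10 genes had a lower mean in KO than in WT cells and no overlap between the 6 libraries, a separation seen for 26.7% of genes, and 7 of 10 were called lower, against 7.85% of all genes. Cmpk2 was lowest relative to WT (log2 -3.25 ± 0.45, adjusted p = 7.71e-05), then Rsad2 (-3.06 ± 0.48, adjusted p = 2.18e-04), Ifit2 (-2.41 ± 0.58, adjusted p = 0.00749), Ifit1 (-2.31 ± 0.47, adjusted p = 0.00201), Usp18 (-2.09 ± 0.43, adjusted p = 0.00244) and Isg20 (-1.95 ± 0.50, adjusted p = 0.0106). Mx1 was called at the margin (-1.76 ± 0.59, adjusted p = 0.0492). The Mx1 call held without KO LPS 10 ng/ml replicate 1, KO LPS 0.1 ng/ml replicate 2 or 3, KO FN replicate 1 or 3, or WT LPS 0.1 ng/ml replicate 3, and was lost without any 1 of the other 18 libraries (adjusted p = 0.0539 to 0.177). Ifit3 (-2.09 ± 0.75, adjusted p = 0.0686), Isg15 (-1.61 ± 0.54, adjusted p = 0.0508) and Mx2 (-1.16 ± 0.52, adjusted p = 0.157) were not called. With replicate number as a block over the 24 libraries, Ifit3, Isg15 and Mx2 were called too (adjusted p = 0.00428, 0.00242 and 0.0489). That made 10 of 10, though the block takes KO and WT libraries of the same number as paired, which was not settled. In a fit of the 6 libraries alone 3 of 10 were called. Ifit3 was also called without KO FN replicate 3, KO LPS 0.1 ng/ml replicate 3 or KO LPS 10 ng/ml replicate 1 (adjusted p = 0.0281 to 0.0498), and Isg15 without any 1 of 7 libraries, which were KO FN replicate 3, KO LPS 10 ng/ml replicate 1, KO LPS 0.1 ng/ml replicates 2 and 3, untreated KO replicates 2 and 3 and WT LPS 0.1 ng/ml replicate 3 (adjusted p = 0.0251 to 0.0479). Oligodendrocyte-lineage markers summed to 120 to 172 CPM in KO and to 188 to 456 CPM in WT libraries at this dose, with 1 of the 10 called lower in KO cells (Cnp, -1.23 ± 0.22), and their part in these differences was not tested.

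**Figure D3:**
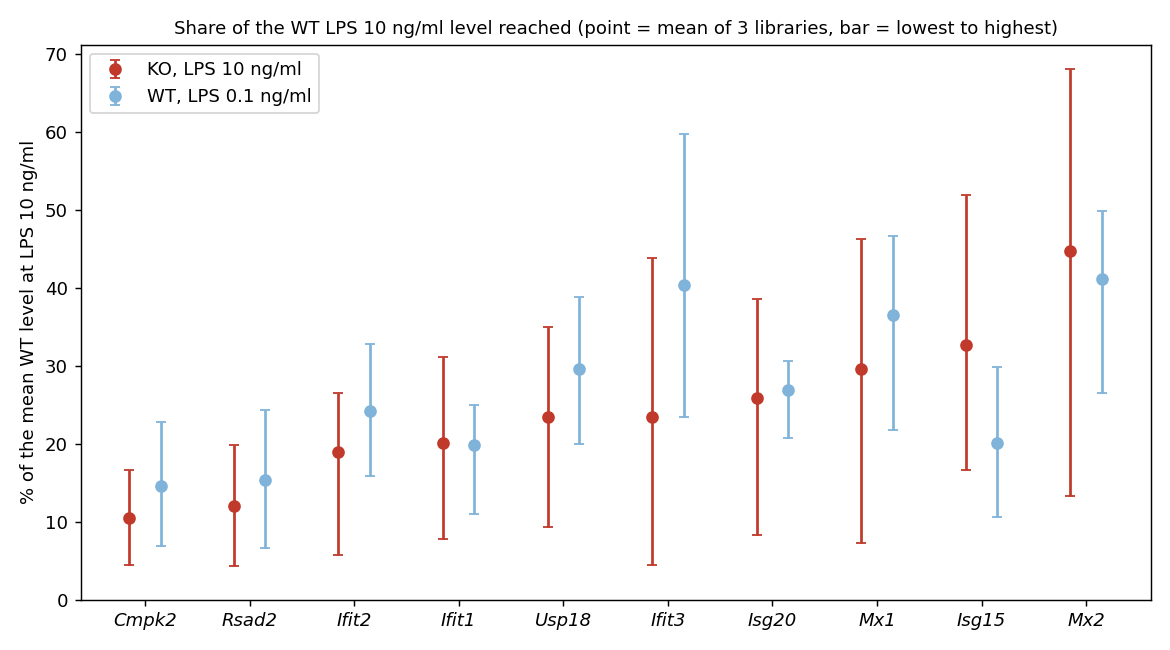
Level of each gene in KO cells at LPS 10 ng/ml (red) and in WT cells at LPS 0.1 ng/ml (light blue), as a percentage of the mean WT level at LPS 10 ng/ml; points are means of 3 libraries and bars run from the lowest to the highest. KO means run from 10.5% for Cmpk2 to 44.7% for Mx2, and the bars of KO cells at the high dose and WT cells at the low dose overlap for all 10 genes.

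The gap between KO and WT cells was uneven among the 10 genes. Their KO means at LPS 10 ng/ml came to 10.5% of the WT mean for Cmpk2, 12% for Rsad2, 18.9% for Ifit2, 20.1% for Ifit1, 23.5% for Ifit3 and for Usp18, 25.9% for Isg20, 29.5% for Mx1, 32.7% for Isg15 and 44.7% for Mx2. Single KO libraries ran from 4.29 to 19.8% for Rsad2 and from 13.2 to 68.0% for Mx2. The ratio of Rsad2 to Mx2 counts was 6.68, 5.19 and 7.45 in KO libraries at LPS 10 ng/ml, against 25.0, 26.3 and 19 in WT libraries at that dose, with no overlap. This pair was picked from near the ends of the order above, so that separation follows from the choice. The ratios of Rsad2 to Cmpk2 (2.51 to 3.05 in KO, 2.24 to 2.85 in WT) and to Ifit3 (4.93 to 10.7 in KO, 8.17 to 16.7 in WT) overlapped at that dose. Those of Rsad2 to the other genes of the set did not. In WT libraries at LPS 0.1 ng/ml the ratio of Rsad2 to Mx2 was 6.91, 11.8 and 5.78, against 11.5, 7.62 and 4.22 in untreated WT libraries, which overlap. WT cells at the low dose, which differ from KO cells at the high dose in LPS dose as well as genotype, had means of 14.6% (Cmpk2) to 41.1% (Mx2) of the WT level at LPS 10 ng/ml. The doses differ, so no test was made between these groups.

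Whether the response itself differed between the genotypes was tested as the interaction, the KO log2 fold change less the WT one. At LPS 0.1 ng/ml all 10 genes had a smaller rise in KO cells, against 2.11% of genes with a negative call, by -3.77 (Isg20) to -6.29 (Rsad2). The Ifit3 call (-4.92 ± 1.09, adjusted p = 0.0189) was lost without untreated KO replicate 2, WT LPS 0.1 ng/ml replicate 1 or untreated WT replicate 2 or 3 (adjusted p = 0.0518 to 0.0623). With FN all 10 had a smaller rise, against 11.3% of genes, by -5.49 (Isg20) to -8.36 (Rsad2). At LPS 10 ng/ml 3 of 10 did, against 3.32% of genes, which were Cmpk2 (-3.33 ± 0.61, adjusted p = 0.00310), Rsad2 (-3.18 ± 0.64, adjusted p = 0.00639) and Ifit1 (-2.43 ± 0.65, adjusted p = 0.0328). The Ifit1 call ended without any 1 of 10 libraries, which were KO LPS 10 ng/ml replicates 2 and 3, WT LPS 10 ng/ml replicates 1 and 3 and the 6 untreated libraries (adjusted p = 0.0525 to 0.0870). Without KO LPS 10 ng/ml replicate 1, Isg20 (adjusted p = 0.0447) and Usp18 (adjusted p = 0.0343) were called too. With the replicate block over all libraries 6 of 10 were called, Ifit2, Isg15 and Usp18 being added (adjusted p = 0.0302, 0.0446 and 0.0493), and with the block nested in the genotype 9 of 10 were, all but Mx2.

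KO cells were also set directly against WT cells under the low dose and FN. Under LPS 0.1 ng/ml all 10 were called lower in KO cells, against 6.33% of genes, by -3.48 (Isg20) to -6.16 (Rsad2). With FN all 10 were called lower, against 17.6% of genes, by -5.20 (Isg20) to -8.24 (Rsad2), so that the KO mean was 0.331% of the WT mean for Rsad2 and 2.70% for Isg20. No KO library overlapped a WT library for any of the 10 genes under either stimulus, which was so for 22.0% of genes at LPS 0.1 ng/ml and 45.5% with FN. Oligodendrocyte-lineage markers summed to 121 to 153 CPM in KO cells with FN, against 215 to 439 CPM in WT cells with FN, and to 136 to 174 CPM in KO cells at LPS 0.1 ng/ml, against 153 to 377 CPM in WT cells. Of these 10 markers Cnp was called lower in KO cells with FN (-1.70 ± 0.23) and at LPS 0.1 ng/ml (-0.75 ± 0.22). Vascular and fibroblast markers summed to 2.16 to 9.84 CPM in KO cells with FN, against 12.5 to 34.0 CPM in WT cells, with Pdgfrb (-2.97 ± 0.62) and Cdh5 (-1.67 ± 0.55) called lower, and Pdgfrb was lower at LPS 0.1 ng/ml too (-2.55 ± 0.64). The astrocyte markers summed to 12.2 to 20.9 CPM in KO cells with FN, against 16.8 to 42.6 CPM in WT cells, with 1 of 7 called lower, Gja1 (-2.60 ± 0.78). The part of these cells in the differences was not tested.

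The KO response to FN was small and varied between libraries. Ifit1 (1.57 ± 0.46, adjusted p = 0.0247) and Mx2 (1.87 ± 0.56, adjusted p = 0.0263) were called against untreated KO cells, and Mx1 (1.61 ± 0.60, adjusted p = 0.0755) and Rsad2 (1.15 ± 0.45, adjusted p = 0.0967) were the next. Both calls ended without KO FN replicate 1 or 2 or any 1 of the 3 untreated KO libraries, at adjusted p = 0.0579 to 0.114 for Ifit1 and 0.0650 to 0.129 for Mx2. Mx1 was called without KO FN, KO LPS 10 ng/ml or KO LPS 0.1 ng/ml replicate 3 (adjusted p = 0.0312 to 0.0452), and Rsad2 without KO LPS 10 ng/ml replicate 3 (adjusted p = 0.0416). With the replicate block over all libraries 3 of 10 were called, Mx1 being added (adjusted p = 0.0483), and with the block nested in the genotype 5 of 10 were, with Ifit2 (adjusted p = 0.0200), Mx1 (0.0110) and Isg15 (0.0205) added. Set against the untreated KO library of the same number, 29 of the 30 values with FN were higher, and 9 of the 10 genes were higher under all 3 numbers, as were 32.0% of all genes. The exception was Usp18 under number 3. The ratios were highest under number 1 for 9 of the 10 genes, all but Isg20 (1.36 times under number 1 and 1.65 times under number 2). Under number 1 Mx2 stood at 5.78 times and Mx1 at 5.03 times the untreated level, against 1.38 times for Mx2 and 1.58 times for Mx1 under number 3.

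**Figure D4:**
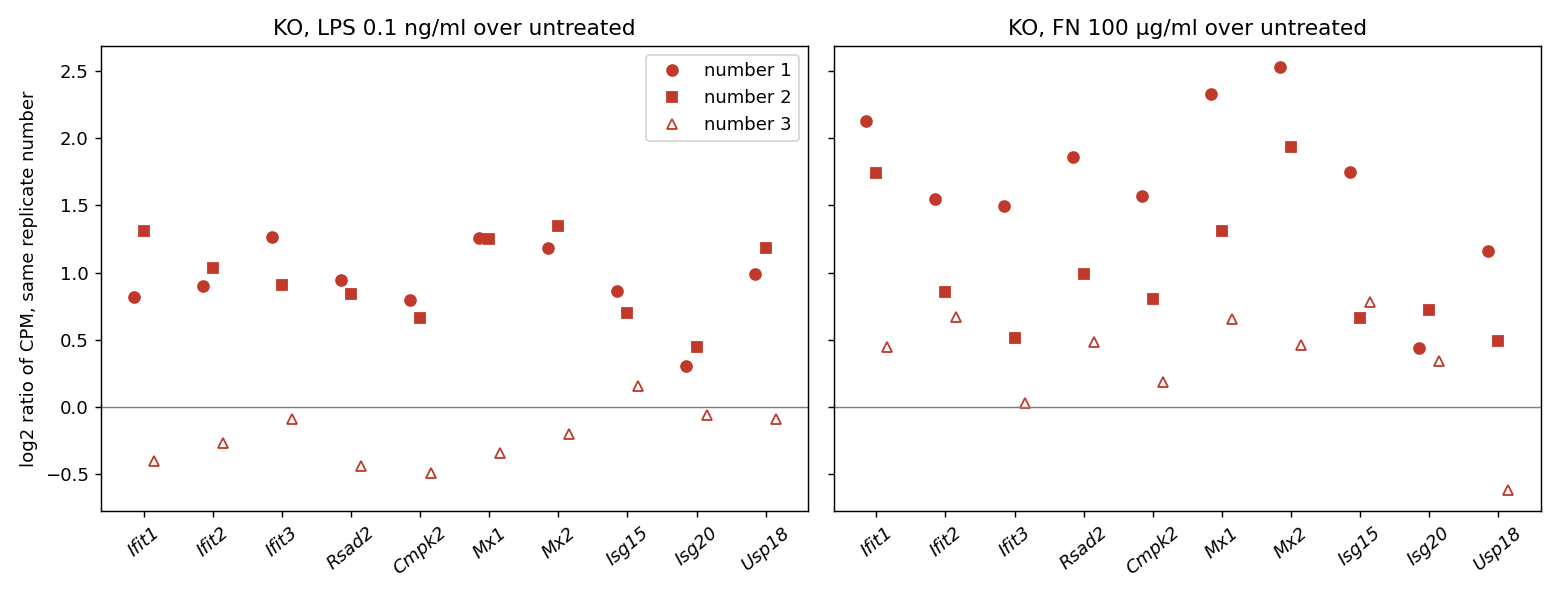
Log2 ratio of stimulated over untreated CPM in KO cells for libraries of the same replicate number (circle 1, square 2, open triangle 3), for LPS 0.1 ng/ml on the left and FN on the right; the line marks no change. With FN 29 of 30 points lie above the line, and with LPS 0.1 ng/ml 21 of 30 do, the points of number 3 lying below it for 9 of 10 genes.

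At LPS 0.1 ng/ml the KO libraries gave fold changes that were positive for all 10 genes but within error. They ran from 0.28 ± 0.52 (Isg20) to 0.98 ± 0.59 (Mx1), and the widest 95% interval, that of Ifit3, reached from -0.62 to 2.51, so that a rise of a few fold could not be told from no change with these libraries. Compared under the same number, 21 of 30 values were higher and 1 gene, Isg15, was higher under all 3 numbers, against 22.2% of all genes. With all libraries numbered 3 left out, an alternative chosen after seeing the data, 1 of 10 was called at this dose (Mx2, 1.26, adjusted p = 0.0396) and 6 of 10 with FN. Of 14 NF-kB targets counted in the same libraries, 12 were called higher at LPS 0.1 ng/ml, against 0.722% of all genes. They were led by Tnf (3.02 ± 0.46), Nfkbie (3.00 ± 0.30) and Tlr2 (2.81 ± 0.30). Ccl3 (1.11 ± 0.29) and Cxcl2 (3.81 ± 0.89) were not called by edgeR. All 14 targets had an unadjusted p under 0.05 in edgeR, and DESeq2 called 14 and limma 13 of the list. That list has a median of 2.17, beside 0.75 for the 10 antiviral genes and 0.00 for all genes. The difference between the lists was not tested.

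The dose of LPS separated the genes in both genotypes. In KO cells LPS 10 ng/ml gave higher levels than 0.1 ng/ml for all 10, against 18.3% of genes, by 3.43 (Isg20) to 5.84 (Ifit1). In WT cells 7 of 10 were called higher at 10 than at 0.1 ng/ml, against 14.8% of genes, with Cmpk2 (2.77 ± 0.44, adjusted p = 1.00e-04) and Rsad2 (2.71 ± 0.47, adjusted p = 2.25e-04) rising most. Ifit3 (1.31 ± 0.73, adjusted p = 0.199), Mx1 (1.45 ± 0.58, adjusted p = 0.0659) and Mx2 (1.28 ± 0.52, adjusted p = 0.0708) were not called, though their libraries did not overlap between the doses, as was so for all 10 and for 43.6% of all genes. With the replicate block over all libraries all 10 were called, these 3 at adjusted p = 0.0399, 0.0189 and 0.0249, and likewise with the nested block. Mx1 was also called without KO FN, KO LPS 10 ng/ml or KO LPS 0.1 ng/ml replicate 3 (adjusted p = 0.0274 to 0.0499), and Mx2 without KO FN or KO LPS 10 ng/ml replicate 3 (0.0300 to 0.0443). The Ifit2 call (2.05 ± 0.57, adjusted p = 0.0102) was lost without WT LPS 0.1 ng/ml replicate 3 (adjusted p = 0.0592). Without the 3 libraries richest in the ribosomal RNA precursor Rn45s, which were KO LPS 0.1 ng/ml replicate 2 and the third WT libraries at LPS 0.1 and 10 ng/ml, 4 of 10 were called.

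FN was set against LPS 10 ng/ml in each genotype. In KO cells all 10 genes were lower with FN than with LPS 10 ng/ml, against 9.43% of genes, by -3.15 (Isg20) to -5.18 (Rsad2). In WT cells 0 of the 10 genes differed by edgeR, DESeq2 or limma, and edgeR called 0 of all 13294 genes (0%), as did DESeq2 and limma, with 0 of the 10 and 105 of all genes at an unadjusted p under 0.05. The log2 differences of FN minus LPS 10 ng/ml ran from -0.09 (Ifit1) to 0.13 (Isg15), and the 95% interval for Rsad2 reached from -0.93 to 0.93. These comparisons share libraries with the contrasts against untreated cells.

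Other genes of the pathway were counted from lists. Ifnb1, which encodes interferon beta, had 26.5, 14.3 and 4.13 CPM in KO cells at LPS 10 ng/ml, against 214, 185 and 133 CPM in WT cells (log2 -3.57 ± 0.63, adjusted p = 6.28e-04). With FN it had 0.837, 0.448 and 0.300 CPM in KO cells, against 199, 153 and 166 CPM in WT cells, and WT cells at LPS 0.1 ng/ml had 9.58, 4.72 and 2.01 CPM. In the KO libraries at LPS 10 ng/ml Ifnb1 had the same order of libraries as the 10 antiviral genes, the first highest and the third lowest. In WT cells at that dose the orders differed. There the third library was the lowest for Ifnb1 and the highest for 7 of the 10 genes. Of the 12 genes of type I interferon signalling, KO cells had 0 called at LPS 0.1 ng/ml by edgeR (2 at an unadjusted p under 0.05, 2 by DESeq2 and 0 by limma), against 0.722% of all genes called higher. At LPS 10 ng/ml KO cells had 11 of the 12 called higher, against 21.2% of all genes. With FN they had 3, against 9.23% of all genes, which were Irf1 (1.99 ± 0.28), Tyk2 (0.79 ± 0.17) and Ifnar1 (0.41 ± 0.13). In WT cells 11 of 12 were called higher at LPS 10 ng/ml, against 23.3% of all genes, led by Ifnb1 (11.62), Socs1 (8.75), an inhibitor of JAK kinases, and Irf1 (6.06). Irf3 (0.18 ± 0.14) was not called. Of the 3 Ifit paralogues in the table, 2 were called higher in KO cells and 3 in WT cells at that dose, where the same shares of all genes apply.

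Isg15 is attached to its targets by Uba7 (the activating enzyme), Ube2l6 (the conjugating enzyme) and ligases, of which Herc6 (the main one in mouse) and Trim25 were listed. In KO cells at LPS 10 ng/ml 3 of these 4 were called higher, against 21.2% of all genes, and Uba7 (0.91 ± 0.42) was not. In WT cells all 4 were called higher at that dose, against 23.3% of all genes, Herc6 by 4.20 ± 0.36, Trim25 by 2.47 ± 0.26 and Uba7 by 2.27 ± 0.43. All 4 were lower in KO than in WT cells there, against 7.85% of all genes, Herc6 by -1.66 ± 0.32. With FN, Trim25 was lower than in untreated KO cells (-1.41 ± 0.25), and Herc6 (-0.02 ± 0.32), Uba7 (-0.35 ± 0.42) and Ube2l6 (-0.10 ± 0.24) were not called. Of 21 other antiviral effectors, KO cells with FN had 3 called against untreated KO cells. Of the 21, 2 were called higher, a share close to the 9.23% of all genes. They were Ch25h (3.32 ± 0.82), a cholesterol hydroxylase, and Apobec3 (1.14 ± 0.26), a cytidine deaminase. WT cells at LPS 10 ng/ml had 16 of the 21 called higher, against 23.3% of all genes, led by Ifi47 (6.71), Ifi44 (4.80) and Ch25h (4.54). Of the 21, 10 were lower in KO than in WT cells at LPS 10 ng/ml, against 7.85% of all genes. Of 14 NF-kB targets, 0 were called between the genotypes at that dose (3 at an unadjusted p under 0.05, and 1 each by DESeq2 and limma). The list medians there were -1.12 and -0.26, beside -2.09 for the 10 genes and 0.03 for all genes. Under the other stimuli the NF-kB targets did differ between KO and WT cells, with 13 of 14 called at LPS 0.1 ng/ml and 12 with FN.

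The genes most like the 10 were sought by the correlation of log2 CPM with the mean standardised profile of the 10 over the 24 libraries, which share treatment groups and depth. The 10 nearest were Gm12250 (r = 0.998), Daxx, Dtx3l, Irgm2, Irgm1, Igtp, Parp10, Gbp7, Trim21 and Oasl1 (r = 0.992). The members themselves correlated with that profile, of which each is a part, at 0.987 (Ifit3) to 0.998 (Ifit2). Oasl1, an inhibitor of Irf7 translation in mouse, was lower at LPS 10 ng/ml in KO than in WT cells (-2.75 ± 0.56). That dose raised it by 9.56 ± 0.78 over untreated WT cells.

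Ifit3 has a near copy 19.2 kb away, Ifit3b, which the tables list as I830012O16Rik. The transcripts are 98.0% identical where they align, and 51.2% of the 50-base windows of Ifit3 occur exactly in Ifit3b, so the counting of reads could split them and the Ifit3 values are uncertain. Ifit3b counts came to 46.3 to 64.0% of the Ifit3 counts in the 8 libraries numbered 1, to 9.62 to 21.5% in the 8 numbered 2 and to 13.9 to 25.3% in the 8 numbered 3. The libraries numbered 1 stood apart in both genotypes and under all 4 treatments. Summing the counts of both genes, an alternative chosen after seeing the data, left every Ifit3 call as it was. Ifit1bl2 (listed as 2010002M12Rik), which shares the Ifit1 promoter window, had 66.8, 0.958 and 0.474 CPM in KO cells at LPS 10 ng/ml, against 233, 1.42 and 2.48 CPM in WT cells. It too was raised in the libraries numbered 1 and close to 1 CPM in the others, while Ifit1 was at 440 CPM or more in the same libraries. Ifit1bl2 and Ifit1 share 7.06% of the 50-base windows of Ifit1.

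**Figure D5:**
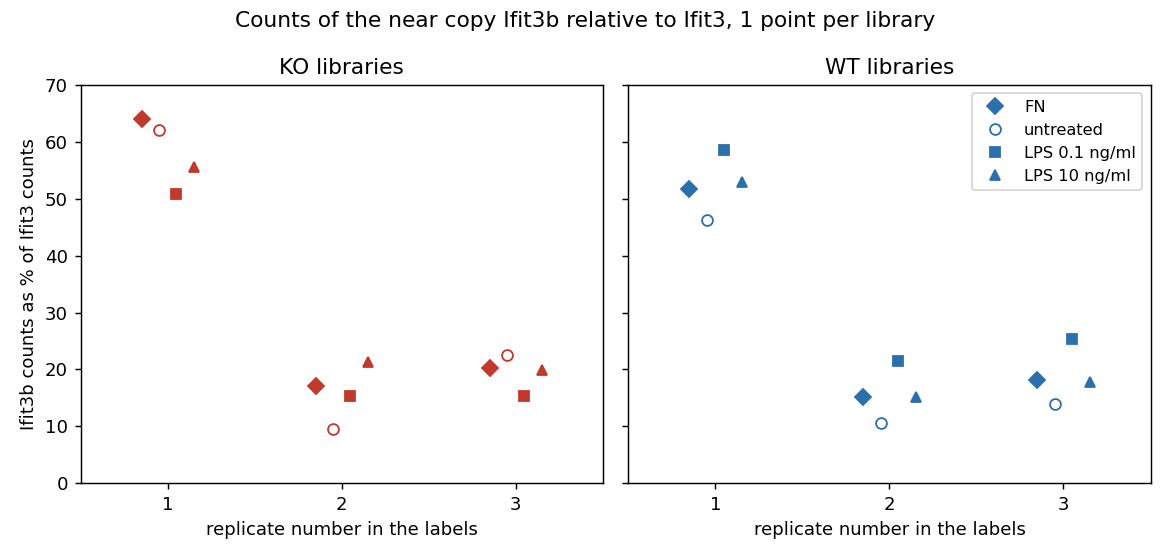
Counts of Ifit3b as a percentage of Ifit3 counts in each library, by the replicate number of the labels, for KO (left, red) and WT (right, blue); symbols mark the treatment. The 8 libraries numbered 1 lie at 46.3 to 64.0% and the other 16 at 9.62 to 25.3%.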

How the data were processed

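RNA was taken with Trizol, made into libraries with a TruSeq kit and sequenced on a HiSeq2000, per the labels' protocols. The submitters' processing notes name the mm10 build, HTSeq 0.5.4, Bowtie2 2.1.0, DESeq, SAMtools 0.1.19, CASAVA 1.8.2 and FastQC 0.10.0; the annotation and the use of strand are not given in the sources used here. The authors deposited raw counts per gene. They also deposited a normalized signal per gene, which was checked to equal those counts divided by 1 factor per library and lists 12889 genes.

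Counts were tested with edgeR 4.0.16 (R 4.3.3; TMM scaling, filterByExpr at a minimum count of 10, robust quasi-likelihood fit over all 24 libraries, 16 residual degrees of freedom), with Benjamini-Hochberg adjustment within each contrast. Standard errors are the log2 fold change over the square root of F. DESeq2 1.42.0 and limma 3.58.1 on the log2 of the deposited signal plus 1 were alternatives. The script was tested on simulated data. Shares of counts carry counting error only, and total counts of 14939019 or more set their precision. P-values rest on the spread between preparations within groups, estimated for each gene over all 8 groups together and not for 1 group alone. Without a block, that spread includes the variation that libraries of the same number share.

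Over 9582 genes, libraries of the same number in a genotype correlated in their deviations from the group means (r = 0.670 to 0.969 over 36 pairs), against -0.803 to 0.444 for other numbers. Between the genotypes, libraries of the same number and treatment correlated too (r = 0.276 to 0.895 over 12 pairs), against -0.802 to 0.760 for other numbers. The pairing comes from these data, since the labels give the numbers only. Between the genotypes the ranges for the same and for other numbers overlap, so a pairing of KO with WT libraries is not settled. The block over all libraries assumes such a pairing. All tests, KO against WT and the interactions included, were fitted without the block, and blocked values stand beside the results they change.

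The genes and lists were chosen with earlier results of these data known. All 10 genes are named, and from other lists the largest 3 called changes and, where 3 or fewer were not called, those. Leaving out all libraries numbered 3 and summing Ifit3 with its near copy were alternatives chosen after seeing the data. Oasl1 and the neighbouring genes were given values after theirs were seen. Some items counted in the lists are not reported here by name.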

Additional observations from a re-analysis of the deposited data

Results flagged for a closer look

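The effect of a stimulus differed between KO and WT cells for 23 values, each by the interaction term of edgeR's quasi-likelihood test with Benjamini-Hochberg adjustment (the KO log2 fold change less the WT one, 3 libraries per group). In all 23 the rise was smaller in KO cells.

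At LPS 0.1 ng/ml all 10 genes differed. The differences were -6.29 for Rsad2 (adjusted p = 1.40e-04), -5.94 for Ifit1, -5.80 for Cmpk2, -5.81 for Mx1, -5.52 for Mx2, -5.23 for Ifit2, -4.92 for Ifit3, -4.40 for Usp18, -4.11 for Isg15 and -3.77 for Isg20. Ifit3 had the largest adjusted p of these, 0.0189.

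With FN all 10 genes differed. The differences were -8.36 for Rsad2 (adjusted p = 5.47e-07), -8.10 for Cmpk2, -7.34 for Ifit1, -6.97 for Ifit2, -6.63 for Mx1, -6.50 for Usp18, -6.28 for Ifit3, -6.12 for Isg15, -5.83 for Mx2 and -5.49 for Isg20. Ifit3 again had the largest adjusted p, 4.31e-04.

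At LPS 10 ng/ml 3 genes differed, Cmpk2 by -3.33, Rsad2 by -3.18 and Ifit1 by -2.43. The 3 stimuli share the untreated libraries of each genotype.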

How the results depend on the processing

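No result changed direction where it was called. The count of the 10 genes called, or which of them were called, changed in the cases below. Some of these moves were by over 1.5 times or past 0, and others were smaller. For KO cells with FN (2 called) it was 5 with the replicate block nested in genotype, 3 with the block over all libraries, 4 by DESeq2, 1 by limma at either pseudocount (1 or 0.5), 2 in a fit of the 6 libraries alone, where Rsad2 replaced Mx2, and 6 with all libraries numbered 3 left out; it was 0 to 4 without 1 library each. For KO cells at LPS 0.1 ng/ml (0 called) it was 1 with those libraries left out. For KO against WT cells at LPS 10 ng/ml (7 called) it was 10 with the block over all libraries, 3 in the 6 libraries alone and 6 to 9 without 1 library each. For the interaction at LPS 10 ng/ml (3 called) the count was 6 with the block over all libraries, 9 with the nested block and 6 by DESeq2. It was 5 by limma at either pseudocount and 2 to 5 without 1 library each. Ifit2 was added with all libraries numbered 3 left out. For WT cells at LPS 10 against 0.1 ng/ml (7 called) the count was 4 without the Rn45s-rich libraries and 10 with either block. It was 9 by DESeq2 and 6 to 9 without 1 library each. Mx1 and Mx2 were added in the 6 libraries alone and with all libraries numbered 3 left out. The interaction at LPS 0.1 ng/ml gave 9 to 10 without 1 library each. The block changed no other call. In the 6 libraries alone, Ifit3 in KO cells with FN against LPS 10 ng/ml was not called (adjusted p = 0.0637). Scaling to library totals moved the median of all genes by -0.80 for LPS 10 ng/ml and -0.78 for FN in WT cells, and moved the counts of all genes called by over 1.5 times in several contrasts, such as 1117 lower against 2335 for KO against WT cells with FN. With 3 libraries a group, rises of under a few fold were often not detectable, and Isg20 and Ifnb1 had few counts in untreated cells.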

Other observations

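The nearest protein-coding gene of the count table on each side of the 6 loci, 12 in all, was also measured at LPS 10 ng/ml. Against untreated cells, 6 of the 12 were called in KO cells and 5 in WT cells, as were 5697 of all 13294 genes in KO cells and 6570 in WT cells. Agrn, which lies 1.94 kb from Isg15 and encodes a matrix proteoglycan, was called higher than in untreated cells at LPS 10 ng/ml in KO (log2 2.73 ± 0.43) and in WT cells (3.23 ± 0.44). AW011738, 2.48 kb on the other side of Isg15, was called higher in KO cells (3.07 ± 0.28) and in WT cells (3.77 ± 0.29) at LPS 10 ng/ml. Aen, an exonuclease gene 2.21 kb from Isg20, was called higher in KO cells (1.06 ± 0.34) and in WT cells (1.29 ± 0.34). Pank1, 157 kb from the Ifit cluster, was called lower in KO cells (-2.02 ± 0.27) and in WT cells (-2.31 ± 0.28) at that dose. Tmprss2, 3.78 kb from Mx2, was called higher but had a mean of only 0.651 CPM in KO cells and 1.26 CPM in WT cells. Pex26, near Usp18, was called lower in KO cells (-1.14 ± 0.23) and not in WT cells (-0.53 ± 0.23), and the interaction was -0.61 ± 0.32 (edgeR, adjusted p = 0.401). Lipa, Rnf144a, Sox11, Bace2, Mfge8 and Slc6a12 were not called in either genotype. The counting is not stated to use strand, so reads running past the end of one gene into the next cannot be told apart from its neighbour's.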
